A study of Homo sapiens with 5 samples.

Results

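Retinoic acid is made in cells from retinol (vitamin A) in a pair of steps. Retinol is oxidized to retinal by retinol dehydrogenases such as RDH10, a step that DHRS3 runs in reverse, and retinal is then oxidized to retinoic acid by the aldehyde dehydrogenases ALDH1A1, ALDH1A2 and ALDH1A3. The carrier CRABP2 takes retinoic acid to the nuclear receptors RARA, RARB and RARG, which pair with an RXR and bind direct repeats of a hexamer in the DNA of their target genes. In the mammary gland, ALDH1A activity is known as a mark of progenitor-like epithelial cells.

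The 9 genes described here were ALDH1A1, ALDH1A3, ALDH3A1, RDH10, DHRS3, CRABP2, RARA, RARB and RARG, out of 23459 genes in the count table. They were found by their Entrez identifiers, matched to gene symbols. The group was chosen by the higher ALDH1A3 level in sgJUN#1 than in NTC cells, measured in these same libraries, so for ALDH1A3 the comparison of the conditions is a description without a test. The other 8 genes were listed for their role in retinoid metabolism or, for ALDH3A1, as a member of the wider enzyme family.

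The 3′ ends of messenger RNAs were sequenced from MCF10A SAM cells. The parental MCF10A cells are an immortalized human mammary epithelial line, and SAM cells are single-clone derivatives that express dCas9-VP64 and MCP-p65-HSF1, a transcriptional activator that a guide RNA brings to a chosen promoter. All 5 libraries carry these activators: 3 are from cells infected with a non-targeting control guide (NTC) and 2 from cells with sgJUN#1, a guide against the JUN promoter. The study asked how overexpression of JUN, a subunit of the transcription factor AP-1, changes gene expression. The study calls its replicates biological, but for this comparison it counts fewer than the 3 labelled NTC libraries, all of which were used here. The labels do not say whether the libraries came from separate cultures, so p-values measure the spread between these libraries.

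The libraries held between 2455627 and 4988062 counts. Levels are given as CPM, the counts of a gene per 1000000 counts of the TMM-scaled library size, and they are not divided by gene length, since a 3′ read marks the end of a transcript. Of all genes, 13616 had enough counts to be tested, and 28 of them (0.206%) passed an adjusted p of 0.05 in edgeR's quasi-likelihood test. JUN itself held 91, 89 and 42 counts in NTC replicates 1 to 3 and 831 and 742 in sgJUN#1 replicates 1 and 2, or 25.0, 36.2 and 9.32 CPM against 171.5 and 265.5 CPM. Both sgJUN#1 libraries lay above every NTC library, and the log2 fold change of 3.25 had an SE of 0.484 (edgeR adjusted p = 0.0733). All 10 mammary epithelial markers passed the filter, with a summed level of 920 to 1528 CPM in NTC and 745 to 1914 CPM in sgJUN#1. KRT14 was near the floor, with 4 to 13 counts, and KRT17 had 0 counts in NTC replicate 1. The sum was carried by KRT5 and KRT6A, whose groups overlapped. Groups were apart in 4 of the 10 markers, against 25.0% of all tested genes. KRT17 and EPCAM were higher and KRT14 and ITGB4 lower in sgJUN#1. The adhesion molecule EPCAM had 23.65, 7.33 and 23.3 CPM in NTC and 143.9 and 56.5 CPM in sgJUN#1 (log2 fold change 2.44, SE 0.515, edgeR adjusted p = 0.210). The hemidesmosome integrin ITGB4 had 119, 47.6 and 292 CPM in NTC and 26.4 and 26.1 CPM in sgJUN#1 (log2 fold change -2.55, SE 0.770, edgeR adjusted p = 0.459). Of 5 fibroblast markers, PDGFRA (452 to 937 counts) and DCN (65 to 396 counts) were well expressed and COL1A2 had at most 1 count. The fibroblast list summed to 189.5 to 298.6 CPM in NTC and 179 to 217 CPM in sgJUN#1, the leukocyte list to 10.2 to 29.3 and 17.5 to 21.8 CPM, the endothelial list to 9.35 to 12.2 and 7.87 to 9.91 CPM and the hormone-responsive luminal list to 57.0 to 169.9 and 53.9 to 54.7 CPM. Among the tested genes of these lists, GATA3 (75.4, 43.1 and 154.6 CPM in NTC, 36.3 and 41.2 CPM in sgJUN#1) and PDGFRA were lower with groups apart. CD68 was higher with groups apart. Their log2 fold changes were -1.25, -0.26 and 1.26 (edgeR adjusted p = 0.556, 0.769 and 0.416). ESR1 and FOXA1 had positive and PGR, DCN, CD14 and VWF negative log2 fold changes, with overlapping groups. The part of these genes in the results below was not tested. In bulk RNA, fewer cells that express a gene and less RNA per cell cannot be told apart.

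The promoters of ALDH1A3 and RARB are shown, because the former belongs to the gene around which the group was built and the latter carries a repeat of the kind that retinoic acid receptors bind. Each runs from 250 bases before to 50 bases after 1 RefSeq start of the gene on GRCh38.p14, 5′ to 3′ on the strand of the gene. Other starts were not scanned, and the windows of RARB, ALDH1A3, ALDH1A1 and RARG lie inside the gene spans given below. Both matched GRCh37, the assembly behind the hg19 build of the counts, at exactly 1 place: chr15:101419786-101420085 for ALDH1A3 and chr3:25469504-25469803 for RARB, each on the plus strand. Capitals mark matches to the retinoid receptor hexamer, and in RARB a pair of them with the spacer between.
ALDH1A3: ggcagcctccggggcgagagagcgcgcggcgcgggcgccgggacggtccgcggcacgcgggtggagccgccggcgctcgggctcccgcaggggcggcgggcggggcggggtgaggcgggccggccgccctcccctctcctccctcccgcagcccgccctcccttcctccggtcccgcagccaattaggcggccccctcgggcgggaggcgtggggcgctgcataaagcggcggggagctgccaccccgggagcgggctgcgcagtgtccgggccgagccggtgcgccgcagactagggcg
RARB: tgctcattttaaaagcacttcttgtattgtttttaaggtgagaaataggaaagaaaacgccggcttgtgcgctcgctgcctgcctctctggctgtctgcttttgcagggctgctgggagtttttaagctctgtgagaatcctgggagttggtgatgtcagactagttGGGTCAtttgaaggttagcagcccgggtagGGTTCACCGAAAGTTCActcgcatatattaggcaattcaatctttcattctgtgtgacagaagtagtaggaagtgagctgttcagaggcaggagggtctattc

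The hexamer was searched as AGGTCA, its variant AGTTCA, as well as GGGTCA and also GGTTCA on both strands, and 38.7% of 27305 RefSeq promoters of this length held at least 1. The RARB window held 3, of which those at -53 and -42 from the start form the direct repeat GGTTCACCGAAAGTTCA with a spacer of 5 bases. Such a repeat, built from any pair of the 4 hexamers, was found in 22 of the promoters (0.0806%). RARA had 2 hexamers, at -230 and -92, and CRABP2 had 1, at -249, while no match was found in the windows of ALDH1A1, ALDH1A3, DHRS3 and RARG. The AP-1 motif TGANTCA, which occurred in 7.76% of promoters, and the TEAD motif GGAATG, which occurred in 14%, were in none of the 7 member promoters at hand. ALDH3A1 and RDH10 had no entry in the table. The ALDH1A3 window was rich in G and C (81.7%, against a median of 58.3% over all promoters) with 46 CG pairs, and that of ALDH1A1 was poor in them (40.3%, 7 CG pairs).

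In NTC cells the 9 genes covered a wide range of levels, as seen in the plot of CPM by library. RARA was the most abundant at 511 ± 191 CPM (SD, n = 3), above 98.3% of the tested genes, and DHRS3 followed at 90.4 ± 16.5 CPM. ALDH1A3 was next at 48.1 ± 15.6 CPM, above 65.2% of the tested genes. The NTC ranges of these 3 genes did not overlap with each other or with those of the lower genes. ALDH3A1 (13.3 ± 9.27 CPM), RARG (11.6 ± 4.36 CPM), RARB (9.74 ± 4.03 CPM), ALDH1A1 (6.73 ± 2.79 CPM) and RDH10 (5.08 ± 0.564 CPM) formed a low group in which each gene overlapped with the next. CRABP2, at 1.77 ± 1.18 CPM, lay below all of them.

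**Figure D1:**
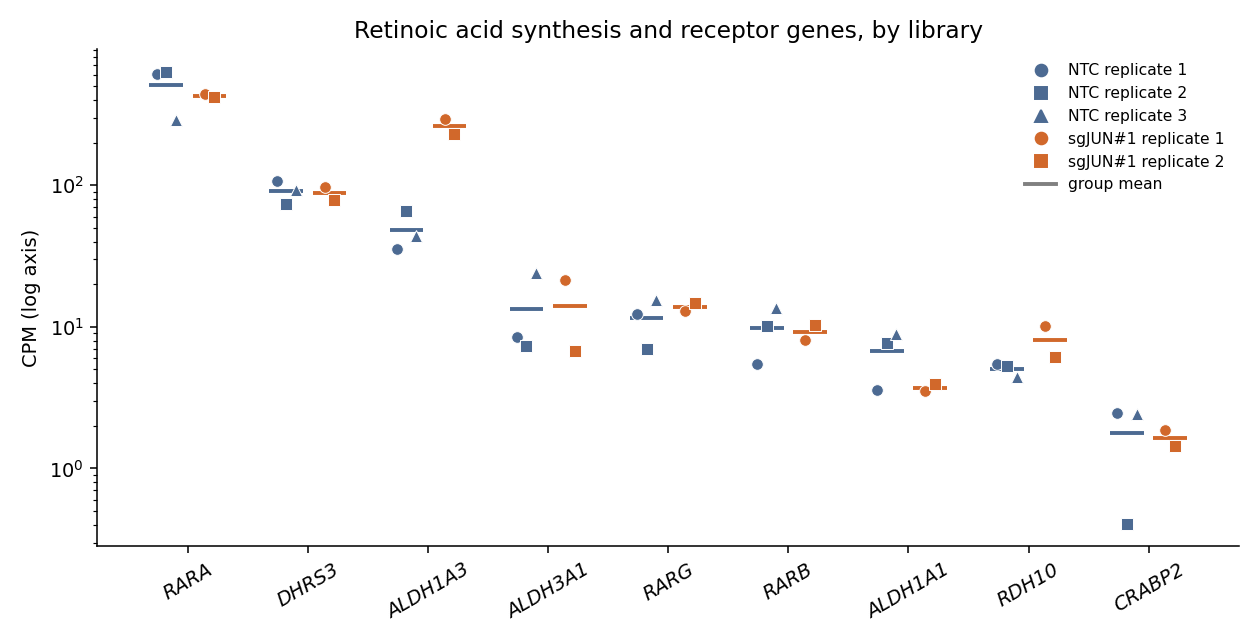
CPM (log axis) of the 9 genes in each of the 3 NTC and 2 sgJUN#1 libraries, ordered by the NTC mean, with bars at the group means. ALDH1A3 is the gene whose sgJUN#1 libraries (230 and 294 CPM) stand far above its NTC libraries (35.2 to 65.5 CPM), and RARA is low in NTC replicate 3 (290 CPM).

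ALDH1A3 (Entrez 220, GRCh37 chromosome 15, 101417919 to 101456831, plus strand) encodes a cytosolic enzyme that oxidizes retinal to retinoic acid. It had 128, 161 and 197 counts in NTC replicates 1 to 3 and 1424 and 644 in sgJUN#1 replicates 1 and 2. This corresponds to 35.2, 65.5 and 43.7 CPM in NTC and to 294 and 230 CPM in sgJUN#1. The lower sgJUN#1 library exceeded the highest NTC library 3.52-fold, while the NTC libraries differed among themselves by at most 1.86-fold. The group means were 48.1 ± 15.6 CPM (SD, n = 3) and 262 ± 44.9 CPM (SD, n = 2), and the fitted log2 fold change was 2.46 (SE 0.270), a 5.49-fold higher level. This difference is what led to the choice of the gene. The sgJUN#1 library with less JUN (replicate 1) had more ALDH1A3, and the NTC library with the most JUN (replicate 2) also had the most ALDH1A3. The NTC library with the least JUN (replicate 3) had the middle ALDH1A3 level. In sgJUN#1 cells ALDH1A3 was thus above DHRS3 (97.0 and 78.4 CPM), which it stayed below in all 3 NTC libraries. Of the genes that overlap ALDH1A3 in the annotation, 0 were in the count table.

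ALDH1A1 (Entrez 216, chromosome 9, 75515587 to 75695358), the paralog that catalyzes the same reaction, was scarce. Its levels were 3.58, 7.73 and 8.87 CPM in NTC and 3.51 and 3.94 CPM in sgJUN#1, on 11 to 40 counts per library. In sgJUN#1, replicate 1 lay just below the lowest NTC library and replicate 2 just above it, so the groups overlapped (log2 fold change -0.86, SE 0.471, edgeR adjusted p = 0.680). ALDH1A2 is the remaining retinal dehydrogenase of this class, and it was measured as part of the wider pathway. Within a library the counts of the 3 enzymes can be set against each other without any scaling. ALDH1A3 made up 69.2% (95% Wilson interval 62.2 to 75.4%), 73.2% (67.0 to 78.6%) and 60.8% (55.4 to 66.0%) of the summed ALDH1A counts in NTC replicates 1 to 3. It made up 90.6% (89.0 to 91.9%) and 87.9% (85.3 to 90.0%) in sgJUN#1. ALDH1A3 was therefore the main ALDH1A transcript in each library, and the intervals of the sgJUN#1 libraries lay above those of NTC. The share of ALDH1A1 was 7.03 to 12.3% in NTC and 1.08 and 1.5% in sgJUN#1. These intervals cover counting error only, and the shares rest on the same measure that led to the choice of ALDH1A3. The shares use the deposited ALDH1A2 counts, which may include reads of the overlapping gene AQP9, as described below.

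**Figure D2:**
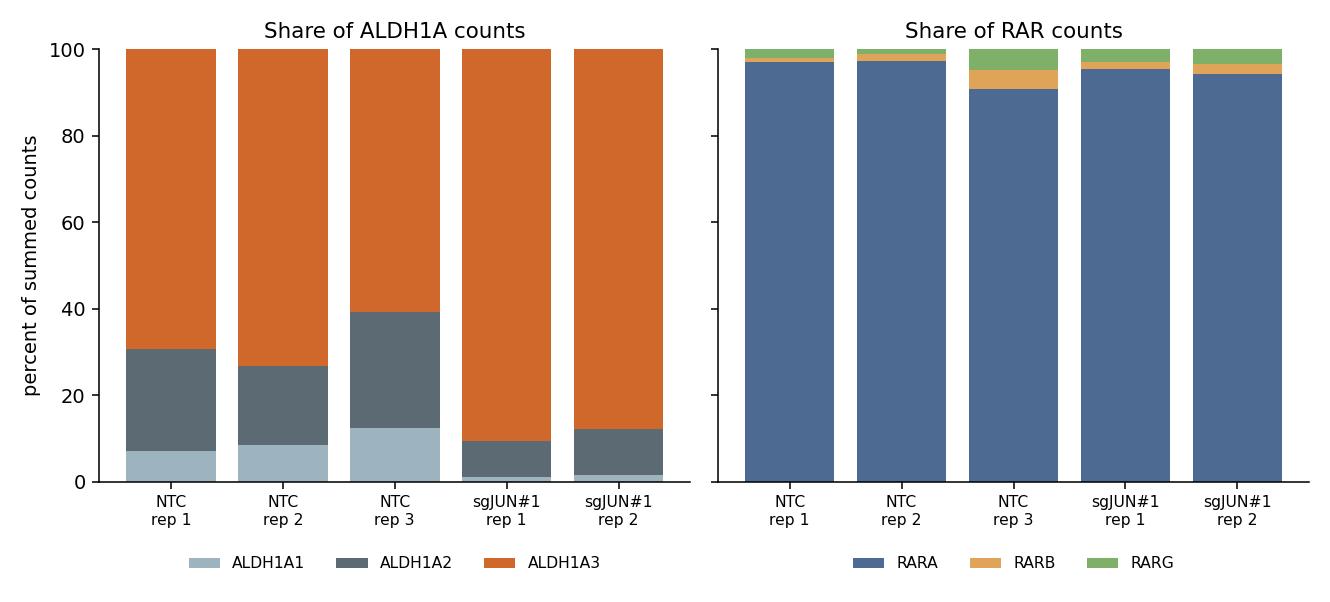
Left, percent of the summed ALDH1A1, ALDH1A2 and ALDH1A3 counts from each gene in each library; right, the same for RARA, RARB and RARG. ALDH1A3 takes 60.8 to 73.2% in NTC and 87.9 to 90.6% in sgJUN#1, and RARA takes at least 90.9% of the receptor counts in each library. The ALDH1A2 counts may include reads of the overlapping gene AQP9, which was not tested.

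ALDH3A1 (Entrez 218, chromosome 17, 19641297 to 19652256) encodes an enzyme known for oxidizing aromatic and lipid-derived aldehydes, with its best known role in the cornea. Its NTC levels were 8.53, 7.33 and 23.96 CPM, and its sgJUN#1 levels were 21.3 and 6.80 CPM. A high library occurred in each group (NTC replicate 3 and sgJUN#1 replicate 1), so the groups overlapped fully and the log2 fold change of 0.09 had an SE of 0.605 (edgeR adjusted p = 0.981). Its sign depended on the libraries: without sgJUN#1 replicate 1 it was -1.0, and without NTC replicate 3 it was 0.87.

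Of the enzymes that interconvert retinol and retinal, RDH10 (Entrez 157506, chromosome 8, 74206837 to 74237516) forms retinal. Its NTC levels were 5.50, 5.29 and 4.44 CPM, and its sgJUN#1 levels were 10.1 and 6.08 CPM. Both sgJUN#1 libraries were above the NTC libraries, replicate 2 only slightly, and the log2 fold change of 0.71 (SE 0.369) did not pass the test (edgeR adjusted p = 0.664). Without sgJUN#1 replicate 1, the log2 fold change was 0.27. RDH10 shares 1188 bases with the ribosomal protein gene RPL7 on the opposite strand, which had between 486 and 1410 counts per library against 13 to 49 for RDH10. As the use of strand in counting is not stated, reads of the pair cannot be told apart in the shared stretch. DHRS3 (Entrez 9249, chromosome 1, 12627939 to 12678216), which reduces retinal back to retinol and is itself a known retinoic acid target, had 106, 73.3 and 91.8 CPM in NTC and 97.0 and 78.4 CPM in sgJUN#1. The groups overlapped, and the log2 fold change was -0.04, with an SE of 0.223 (edgeR adjusted p = 0.976).

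CRABP2 (Entrez 1382, chromosome 1, 156669398 to 156675608), the carrier that delivers retinoic acid to its receptors, held 9, 1 and 11 counts in NTC and 9 and 4 in sgJUN#1. This was too few for the filter, and a difference between the groups was not detectable at this depth, where 3 counts correspond to 0.601 to 1.22 CPM of the total counts.

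RARA (Entrez 5914, chromosome 17, 38465432 to 38513895) was the dominant receptor. Its NTC levels were 613, 629 and 290 CPM, and its sgJUN#1 levels were 439 and 419 CPM. The sgJUN#1 libraries lay between the extremes of NTC, of which replicate 3 was far below the others, and the log2 fold change of -0.25 was smaller than its SE of 0.311 (edgeR adjusted p = 0.876). Without NTC replicate 3 it was -0.53 (edgeR adjusted p = 0.368). RARB (Entrez 5915, chromosome 3, 24729378 to 25639423) holds the repeat shown above in its scanned window. Its levels were 5.50, 10.2 and 13.5 CPM in NTC and 8.05 and 10.4 CPM in sgJUN#1. Both sgJUN#1 values fell inside the NTC range (log2 fold change -0.11, SE 0.403, edgeR adjusted p = 0.967). RARG (Entrez 5916, chromosome 12, 53604351 to 53626764), the receptor known from squamous epithelia, had 12.4, 6.92 and 15.5 CPM in NTC and 13 and 14.7 CPM in sgJUN#1, again inside the NTC range (log2 fold change 0.21, SE 0.348, edgeR adjusted p = 0.913).

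The receptors were also compared as shares of their summed counts, which need no scaling of libraries. RARA gave 97.2% (95% Wilson interval 96.4 to 97.8%), 97.4% (96.4 to 98.0%) and 90.9% (89.3 to 92.3%) of the summed RAR counts in NTC replicates 1 to 3 and 95.4% (94.5 to 96.2%) and 94.4% (92.9 to 95.5%) in sgJUN#1. NTC replicate 3 stood apart, with the lowest RARA share and the highest RARB (4.24%) and RARG (4.86%) shares. In the remaining libraries RARB was at 0.872 to 2.34% and RARG at 1.07 to 3.31%. The sgJUN#1 libraries lay inside the NTC range for each receptor.

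Of the 8 genes other than ALDH1A3, 7 were tested and 0 passed the edgeR threshold. The count at an unadjusted edgeR p under 0.05 was also 0, against 1141 of all 13616 tested genes. DESeq2 at an adjusted p under 0.05 called 0 as well, against 145 of all genes. Log2 fold changes lay between -0.86 and 0.71, and their median was -0.04, against -0.01 over all tested genes. The groups of libraries did not overlap in 1 of the 7 (RDH10), compared with 25.0% of all tested genes. The SE of these genes was between 0.223 and 0.605 on the log2 scale.

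**Figure D3:**
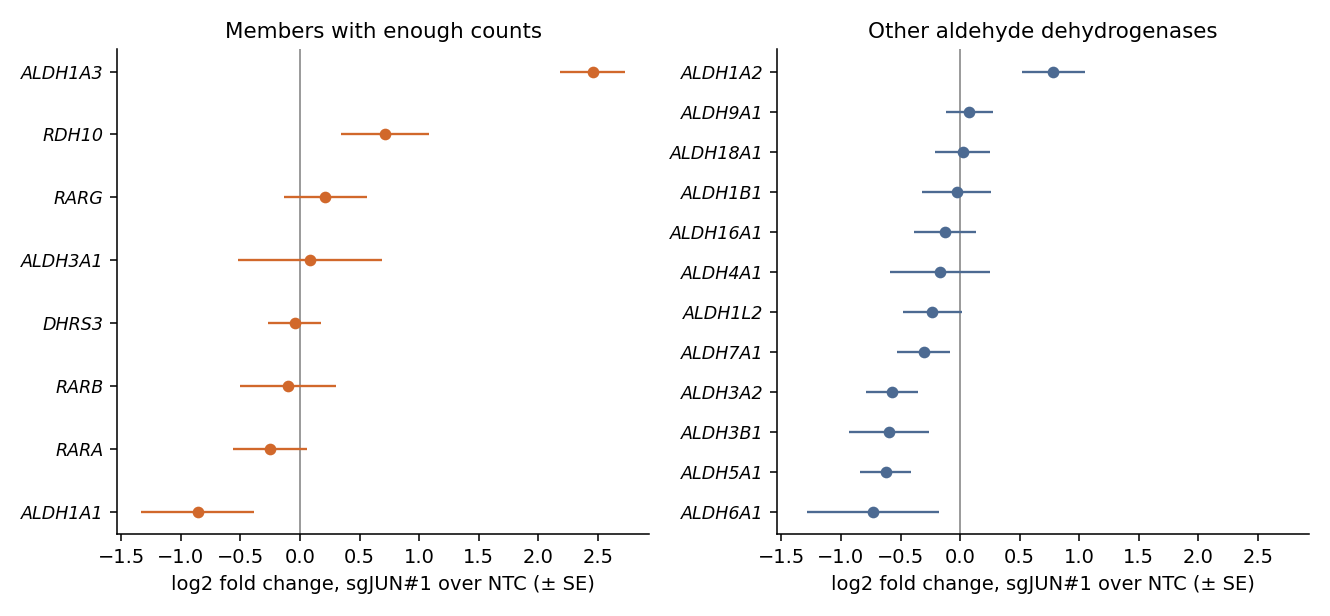
Log2 fold change of sgJUN#1 over NTC with its SE from edgeR, for the 8 tested genes of the group (left) and 12 further aldehyde dehydrogenases (right). ALDH1A3, at 2.46, was chosen for this value, and the other genes lie between -0.86 and 0.78.

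To set ALDH1A3 beside its enzyme family, 16 further aldehyde dehydrogenases were listed, of which 12 were tested. In edgeR 0 of them passed. An unadjusted edgeR p under 0.05 was found for 3 (ALDH3A2, ALDH5A1 and ALDH1A2), against 1141 of all 13616 tested genes. DESeq2 called 0, against 145 of all genes. Their median log2 fold change was -0.20, with 3 positive and 9 negative values, and the groups did not overlap in 3 of 12 (25.0%), the same share as over all tested genes. The lowest values were those of ALDH6A1 (-0.73, SE 0.552), a mitochondrial enzyme of valine breakdown, ALDH5A1 (-0.62, SE 0.213), which oxidizes succinic semialdehyde from GABA, and ALDH3B1 (-0.60, SE 0.335), with edgeR adjusted p of 0.771, 0.454 and 0.692. ALDH6A1 was at -0.14 without NTC replicate 3 and at -0.22 without sgJUN#1 replicate 1, and ALDH3B1 was at -0.32 without sgJUN#1 replicate 1. ALDH5A1 was very even in NTC, at 43.7, 43.6 and 43.5 CPM, and stood at 30.55 and 25.76 CPM in sgJUN#1. ALDH6A1 overlaps the counted gene BBOF1 and ALDH5A1 overlaps GPLD1, and reads shared with these genes were not examined. The highest were ALDH1A2 (0.78), ALDH9A1 (0.08, SE 0.200) and ALDH18A1 (0.02, SE 0.235, negative without NTC replicate 2, NTC replicate 3 or sgJUN#1 replicate 1). The edgeR adjusted p of ALDH9A1 and ALDH18A1 were 0.953 and 0.989.

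ALDH1A2 (Entrez 8854, chromosome 15, 58245622 to 58790065, minus strand) held 44, 40 and 87 counts in NTC and 131 and 78 in sgJUN#1. At 12.1, 16.3 and 19.3 CPM against 27.04 and 27.91 CPM the groups did not overlap, and the log2 fold change of 0.78 had an SE of 0.266 (edgeR adjusted p = 0.451). The water and glycerol channel gene AQP9 lies within ALDH1A2 on the opposite strand, with 47743 shared bases. AQP9 held 0, 5 and 6 counts in NTC and 75 and 40 in sgJUN#1 (log2 fold change 3.79, SE 0.612), and is named here after its values were seen. As AQP9 passed the filter on low counts only through the sgJUN#1 libraries, no test of its difference is given. With the AQP9 counts taken off, ALDH1A2 had 12.1, 14.2 and 17.97 CPM in NTC and 11.6 and 13.6 CPM in sgJUN#1. The groups then overlapped, and the log2 fold change of -0.25 was again smaller than its SE of 0.291 (edgeR adjusted p = 0.865). Whether reads were counted for both genes was not tested, so the direction of ALDH1A2 is uncertain. LIPC, also on the opposite strand, shares 87298 bases with ALDH1A2. It held 3, 7 and 9 counts in NTC and 6 and 4 in sgJUN#1, which were not taken off.

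**Figure D4:**
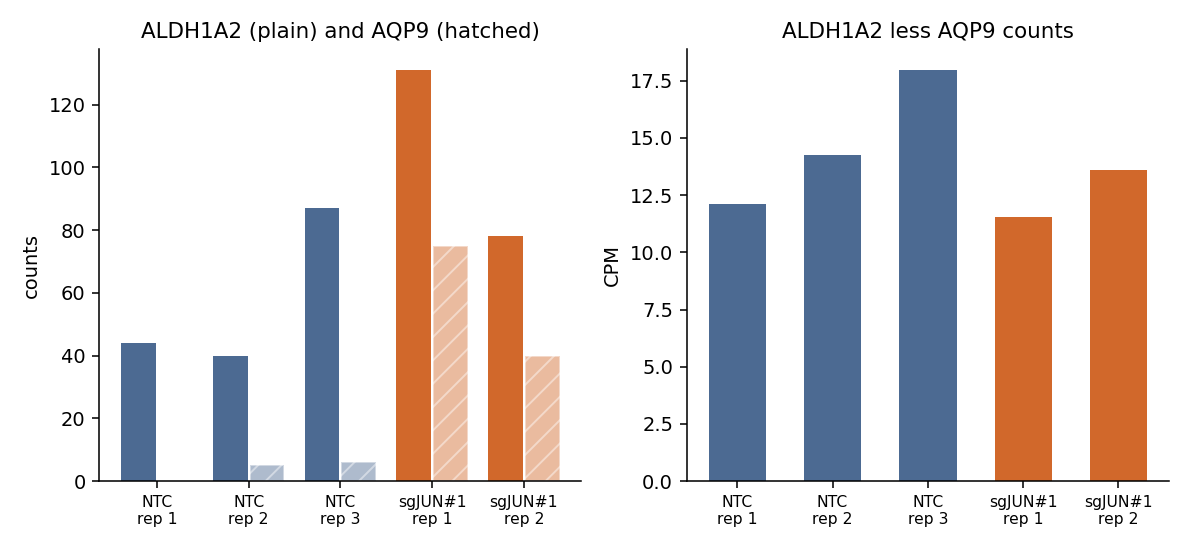
Left, counts of ALDH1A2 (plain bars) and of AQP9 (hatched bars) in each library; right, CPM of ALDH1A2 after the AQP9 counts were taken off. AQP9 has at most 6 counts in NTC and 75 and 40 in sgJUN#1, and without them the ALDH1A2 level in sgJUN#1 (11.6 and 13.6 CPM) overlaps that in NTC (12.1 to 17.97 CPM).

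The wider retinoid pathway was followed in 57 further genes for supply and storage, interconversion, synthesis and breakdown, carriers and receptors, and known retinoic acid targets. Of these, 36 were tested and 0 passed the edgeR threshold. An unadjusted edgeR p under 0.05 was found for 6, against 1141 of all 13616 tested genes. DESeq2 called 1, DHRS9, against 145 of all genes, and gave no adjusted p for 5 of the 36. Their median log2 fold change was 0.16, with 22 positive and 14 negative values. The groups did not overlap in 9 of 36 (25.0%), 5 higher and 4 lower in sgJUN#1, which was the share seen over all tested genes. Among 15 tested retinoic acid targets outside the group described here, log2 fold changes lay between -0.79 and 0.89, and edgeR called 0. Their median was 0.33, against -0.01 over all tested genes. RARB and DHRS3, tested targets inside the group and thus left out of this median, were at -0.11 and -0.04. CYP26A1, which degrades retinoic acid and is among its most inducible targets, had 0 counts in all 5 libraries, which allows up to 3 counts or at most 1.22 CPM per library. CYP26B1 had 8.55 to 12.2 CPM in NTC and 13.6 and 9.30 CPM in sgJUN#1. The RXR partners RXRA (47.2 ± 3.42 CPM in NTC, n = 3, and 39.7 ± 1.55 CPM in sgJUN#1, n = 2) and RXRB had log2 fold changes of -0.25 and -0.26, with edgeR adjusted p of 0.784 and 0.893, and RXRG had 0 counts throughout.

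The largest difference among these genes was a lower level of DHRS9 (Entrez 10170, chromosome 2, 169921299 to 169952677), a short-chain dehydrogenase that can oxidize retinol to retinal. It held 93, 42 and 312 counts in NTC and 9 and 2 in sgJUN#1, or 25.6, 17.1 and 69.2 CPM against 1.86 and 0.716 CPM. Both sgJUN#1 libraries were far below the lowest NTC library, and NTC replicate 3 was far above the other NTC libraries. The log2 fold change of -4.72 (SE 0.818) did not pass the test over all genes (edgeR adjusted p = 0.109). It passed without NTC replicate 2 (-5.05, edgeR adjusted p = 0.0144) and without NTC replicate 3 (-3.90, edgeR adjusted p = 0.00397), and with DESeq2 (-4.75, adjusted p = 1.2e-09). DHRS9 passed the filter on low counts only through the NTC libraries, where it is high. These adjusted p therefore describe its values and are not a test of the difference. With no filter on low counts, its edgeR adjusted p was 0.323.

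The next lowest values were those of the carotenoid-cleaving oxygenases BCO2 (-1.20, SE 0.439) and BCO1 (-1.04, SE 0.670), with edgeR adjusted p of 0.491 and 0.735. BCO2 was at -0.68 without NTC replicate 3. BCO1 rested on 1 to 12 counts per library and passed the filter on low counts only through NTC libraries. AKR1C3, an abundant reductase of retinal, steroids and prostaglandins that is named here after its values were seen, had 962, 1003 and 1423 CPM in NTC and 721 and 412 CPM in sgJUN#1 (log2 fold change -0.99, SE 0.281, edgeR adjusted p = 0.315). Reads of AKR1C3 are uncertain, because close copies of the gene exist in the AKR1C family.

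Beside ALDH1A2, the highest values were those of RAI14 and RPE65. RAI14, an actin-associated protein named for its induction by retinoic acid, had 99.6, 197 and 109 CPM in NTC and 265 and 233 CPM in sgJUN#1 (log2 fold change 0.89, SE 0.288, edgeR adjusted p = 0.416). RPE65, the isomerase of the visual cycle in the retinal pigment epithelium, had 25.0, 51.3 and 32.4 CPM in NTC and 68.7 and 60.1 CPM in sgJUN#1 (0.85, SE 0.290, edgeR adjusted p = 0.459). What the RPE65 counts represent in mammary epithelial cells was not tested, and 0 annotated genes overlap it. Both RAI14 and RPE65 were above all NTC libraries in both sgJUN#1 libraries, and NTC replicate 2 was the highest control for each. STRA6, the cell-surface receptor that takes up retinol, had 2.47 to 7.32 CPM in NTC and 6.40 and 8.59 CPM in sgJUN#1 (log2 fold change 0.67, SE 0.474, edgeR adjusted p = 0.754), and is named here after its values were seen.

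**Figure D5:**
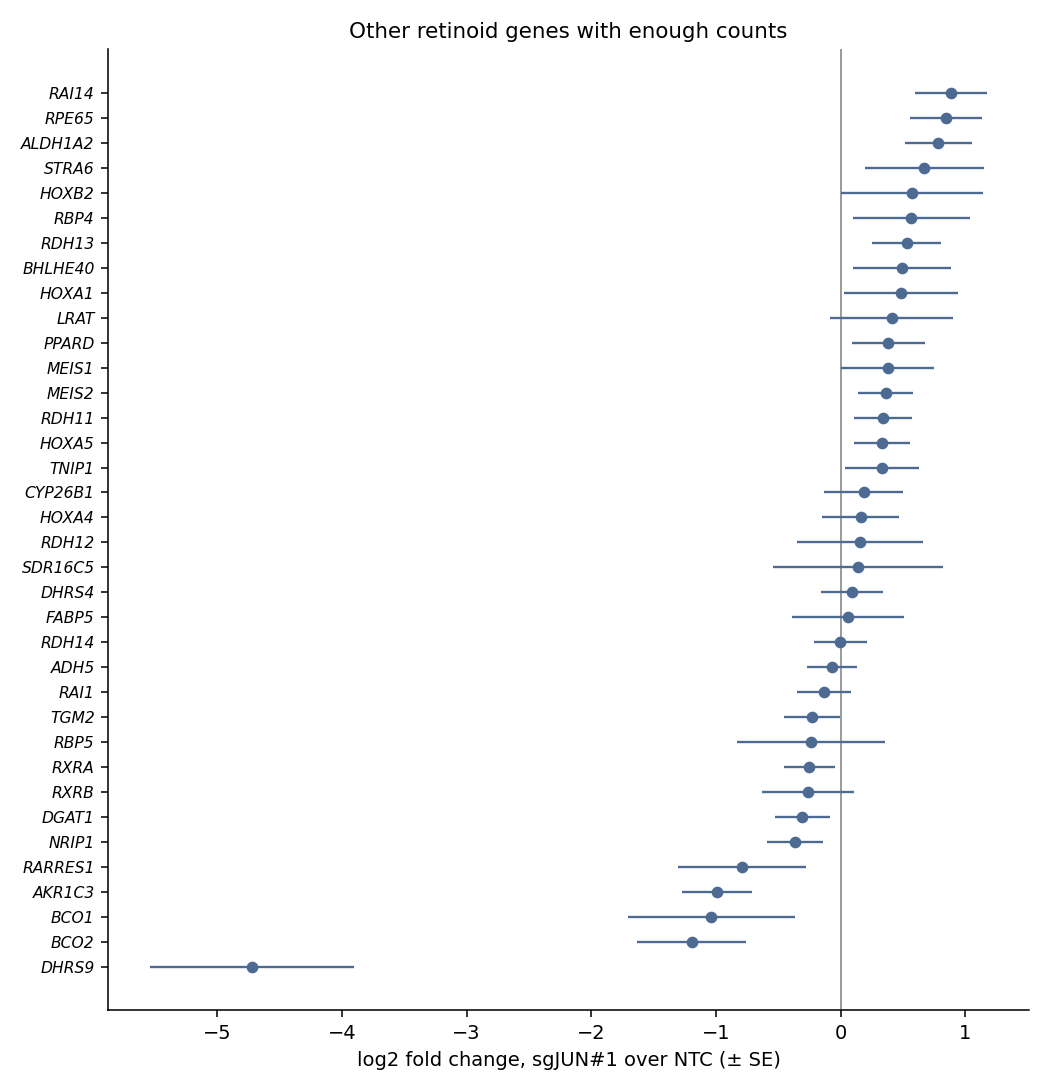
Log2 fold change of sgJUN#1 over NTC with its SE from edgeR, for the 36 tested genes of the wider retinoid lists, sorted by value. DHRS9 stands apart at -4.72, and the other genes lie between -1.20 and 0.89.

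The 5 tested genes whose levels ran most like those of ALDH1A3 over the 5 libraries were DSC2, GJB2, GABRA2, PLPP4 and PTGS2. Likeness was measured as the root mean square difference of log2 CPM, each gene centered on its mean, and it was 0.206 for DSC2, 0.287 for GJB2 and 0.369 to 0.372 for the others. DSC2, which encodes the desmosomal cadherin desmocollin 2, had 4.13, 6.11 and 6.43 CPM in NTC and 37.2 and 28.3 CPM in sgJUN#1. GJB2, which encodes the gap junction protein connexin 26, had 0.825, 2.04 and 0.665 CPM in NTC and 6.40 and 7.51 CPM in sgJUN#1. In NTC, GJB2, GABRA2, PLPP4 and PTGS2 had at most 6 counts in any library, and their sgJUN#1 libraries held 13 to 39 counts. These 4 genes passed the filter on low counts only through the sgJUN#1 libraries. As likeness to ALDH1A3 includes its difference between the groups, no test of that difference is given for the 5 genes.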

How the data were processed

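Per the labels, the authors prepared QuantSeq 3′ mRNA-Seq FWD libraries. Per the submitters' processing notes, Cutadapt (4.2), Bowtie2 (2.3.5.1) and hg19 were used. The RNA-sequencing methods of the study describe a poly(A) library kit and another Bowtie2 version, with counting in R by countOverlaps, so which of these steps apply to the QuantSeq libraries is not settled. The annotation, strand handling and molecular identifiers are not given in the sources used here. Deposited are unnormalized counts, 1 row per gene.

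Symbols were matched to 23308 of 23459 Entrez identifiers through RefSeq names (GRCh38.p14). Positions are those of GENCODE v44 on GRCh37. Counts were tested with edgeR 4.0.16 (filterByExpr, TMM, robust quasi-likelihood F test, group as the only term) in R 4.3.3. P-values were Benjamini-Hochberg adjusted over the 13616 tested genes, with a threshold of 0.05. SE was taken as the size of the log2 fold change over the root of F. The fits were tested on simulated data. DESeq2 1.42.0, other normalizations and filters, a replicate block and fits without each library were alternatives. NTC replicate 3 has no sgJUN#1 partner, so the replicate block drops it from the contrast between the groups. No 2 libraries of a group agreed within counting noise (chi-square per degree of freedom 7.62 for the sgJUN#1 pair, 7.75 for NTC replicates 1 and 2, and 18.4 and 13.7 for NTC replicate 3 against these).

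The 9 genes and the gene lists were chosen with earlier results of these data known. Named in the text are JUN, the 9 genes, the 3 highest and 3 lowest log2 fold changes of the retinoid and of the aldehyde dehydrogenase lists, the 5 profiles most like that of ALDH1A3, and exceptions marked as such. Further genes of the lists are given as examples of a role.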

Additional observations from a re-analysis of the deposited data

How the results depend on the processing

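The log2 fold change of ALDH1A3 stayed between 2.27 and 2.73 in 11 alternatives. It was 2.73 without NTC replicate 2 and 2.27 without sgJUN#1 replicate 1. The count of 28 genes past the threshold was 145 with DESeq2, 148 with no filter, 18 when each library had to hold at least 10 counts and 103 with the replicate block, and it ran from 10 to 57 when single libraries were left out (10, 56 and 57 without NTC replicates 1, 2 and 3). Of the wider retinoid genes, 1 (DHRS9) passed with DESeq2, with the replicate block and without NTC replicate 2 or 3, so that the count ran from 0 to 1 in the fits without a library. With at least 10 counts in every library, DHRS9 was not tested, and it passed the main filter only through the NTC libraries. The median of these genes was 0.21 with the replicate block and ran from 0.065 to 0.26 without single libraries. The count of other aldehyde dehydrogenases was 0 in all 11 alternatives.

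JUN passed with DESeq2 (3.24, adjusted p = 3.8e-11), with the replicate block (2.82, edgeR adjusted p = 1.2e-04), without NTC replicate 2 (3.68) or 3 (2.85), and its range without single libraries was 2.85 to 3.68. DHRS9 was -3.97 with the block (edgeR adjusted p = 9.2e-04). The block and the fit without NTC replicate 3 compare the same libraries, so for JUN and DHRS9 they are not separate results. Signs turned for ALDH3A1 (-0.17, -0.18 and -1.0 without NTC replicate 1, NTC replicate 2 and sgJUN#1 replicate 1, range -1.0 to 0.87), RARB (0.29 with the replicate block, 0.25 and 0.08 without NTC replicate 3 and sgJUN#1 replicate 1, range -0.40 to 0.25), RARG (-0.024 without NTC replicate 2, range -0.024 to 0.48), DHRS3 (0.084 and 0.105 without NTC replicate 1 and sgJUN#1 replicate 2, range -0.21 to 0.105), ALDH18A1 (-0.063 with the replicate block, -0.039, -0.061 and -0.188 without NTC replicate 2, NTC replicate 3 and sgJUN#1 replicate 1, range -0.188 to 0.195) and ALDH1A2 (-0.25 with the AQP9 counts taken off, an alternative chosen after seeing the data). The adjusted p of each turned value was above 0.05, and their cause was not tested. A fit without an sgJUN#1 library assumes that the lone library varies like the others.

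The labels do not say that a replicate number marks a shared batch. The difference between replicates 1 and 2 in NTC correlated with that in sgJUN#1 at 0.0146 over 13616 genes, so the samples were treated as unpaired. This value alone does not settle whether pairing is absent. The column headers of the counts run in the order of the replicates, and what that order marks is not stated. With the replicate block 103 genes passed, against 57 without NTC replicate 3 and without a block. Depth limits the low genes most: 3 counts correspond to 0.601 to 1.22 CPM, and intervals on counts cover counting error only.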
